A study of Homo sapiens with 12 samples.

Results

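The genes described here code for proteins of cilia and flagella and for coiled-coil proteins that carry the same kinds of name. They were chosen by name alone, as the protein-coding genes in the 3 deposited expression tables whose symbol starts with DNAH, DNAI, CFAP, CCDC, TEKT, SPAG, SPATA, RSPH, DRC, IQC, TTC or ARMC. This gave 33 genes of the 3090 distinct genes in the tables. MCF-10A cells held 29 of them among 2680 listed genes, MDA-MB-231 cells held 4 among 381, and LM2 cells held 0 among 97. No member was listed in more than 1 cell line.

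Of the 3 lines, MCF-10A comes from non-malignant breast epithelium, MDA-MB-231 from a triple negative breast cancer, and LM2 was derived from MDA-MB-231. For each line, 2 libraries came from cells driven along channels with a cross section of 5 by 5 µm and a length of 150 µm at 7 to 33 cmH2O, and 2 came from control cells that had not transited, which makes 12 libraries. The comparison asks how passage through a channel the size of a capillary changes messenger RNA. The channels are a model of a capillary without endothelium or blood flow, and the study describes the 2 libraries of a group as biological replicates from separate experiments.

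The motile cilium is built around an axoneme, a ring of doublet microtubules around a central pair. Outer and inner dynein arms, which are motors built on heavy chains, slide neighbouring doublets, while the nexin-dynein regulatory complex, the radial spokes and the central apparatus coordinate the beat. Microtubule inner proteins line the inside of the doublets, and intraflagellar transport carries parts along the cilium as it is built. Cultured epithelial cells can form a primary cilium, which lacks dynein arms, and axonemal dyneins are best known from multiciliated epithelia and sperm. The name prefixes also take in proteins with no known part in cilia, so the label fits some of the members only: 17 of 33 stand on a list of cilium proteins used here.

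The tables hold only genes that the authors' comparison had selected, since the largest unadjusted p-value was 0.0499 (MCF-10A), 0.0497 (MDA-MB-231) and 0.0499 (LM2). Every listed member had therefore been chosen for a difference between constriction and control, and the counts of calls below are a description. Genes outside the tables were not analysed here. Total reads per library, computed from counts, FPKM and gene lengths, were 29978695 and 35494737 in the MCF-10A constriction libraries, 36123663 and 46436989 in the MCF-10A controls, and 37214886 to 53584754 in the other 8 libraries. The study lists lower cell concentrations for the MCF-10A constriction samples than for their controls. Its RNA amounts were lower after transit in replicate 1 and higher in replicate 2. The part of input in the counts was not tested. Of the marker lists, 3 of 20 multiciliated cell genes, 0 of 20 male germ cell genes and 0 of 8 basal breast epithelial genes were listed in MCF-10A, so the identity of these cells cannot be read from the tables.

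The promoters of the members are shown first because genes of the motile cilium are known to share the X-box, the site of RFX transcription factors. RefSeq promoters on GRCh38.p14, which span 250 bases before to 50 bases after a gene's start, were matched for 29 of 33 members, and 25 of these started within 1000 bases of the start in the tables. The letters GTTGCC, one arm of the X-box, were searched on both strands. They were present in 9 of 25 members (36.0%) and in 12.2% of the 35114 promoters of that length. In the 120 bases before the start they were present in 7 of 25 (28.0%), against 5.52% of all promoters. That window was chosen after the positions had been seen, so this contrast is a description only. The 7 members follow, 5′ to 3′ along the gene, with the searched letters or their reverse complement in capitals. CFAP45 and DNAH12 are given as the whole 120 bases before the start, and the other 5, whose window reaches into the gene as the tables place it, as 30 bases around the site.

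CFAP45 (chr1:159900166-159900285, minus strand): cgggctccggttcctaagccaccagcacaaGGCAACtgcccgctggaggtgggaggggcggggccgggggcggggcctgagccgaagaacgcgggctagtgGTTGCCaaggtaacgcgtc
DNAH12 (chr3:57544345-57544464, minus strand): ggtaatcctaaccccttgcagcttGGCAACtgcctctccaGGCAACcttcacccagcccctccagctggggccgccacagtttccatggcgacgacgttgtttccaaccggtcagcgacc
DNAH10 (chr12:123762273-123762302, plus strand): gctagggccgccGTTGCCacggacgcccgc
CFAP53 (chr18:50266485-50266514, minus strand): gaggcgcaccatGGCAACcagacttctgcg
CCDC173 (chr2:169694404-169694433, minus strand): acttccggcggcGTTGCCaagcaaccgcgt
CCDC180 (chr9:97307294-97307323, plus strand): cctcccctccgcGTTGCCttggagaccatg
SPATA6L (chr9:4666549-4666578, minus strand): gggcactgcgtgGGCAACagcgaccgtgag

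CFAP45 and DNAH12 held 2 copies of the letters each in the window, and the other 5 held 1. The nearest copy began 19 bases before the start in CFAP45, 16 bases before it in DNAH10 and CCDC173, and 7 bases before it in CFAP53. Both arms in the form GTTNCCNNGGNAAC were found in 1 of 25 members, CFAP45, and in 0.49% of all promoters, and this match contains the GTTGCC counted above. The forkhead letters TGTTTAC were found in 2 of 25 members, SPATA6L and CFAP43, and in 3.42% of all promoters. These matches describe the letters only. No factor's binding was measured, and the share of promoters with a match was not tested.

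In MCF-10A cells 28 of the 29 members had no read in either constriction library and between 4 and 130 reads in each control library. Summed over the 28 genes, there were 697 and 733 reads in the 2 control libraries and 0 and 0 in the constriction libraries. DNAH12 was the exception. In bulk RNA, fewer cells of a type and less RNA per cell cannot be told apart. Zero reads in both constriction libraries was also the state of 89.6% of all genes in this table, so it does not set the members apart. The upper limit for a count of 0 was set at 3 reads, equal to a normalised count of 3.62 in constriction replicate 1 and 3.11 in replicate 2, counting error only. Ratios below are therefore bounds, the control mean divided by the mean of these 2 limits, where the normalised count is the read count divided by a size factor for each library.

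**Figure D1:**
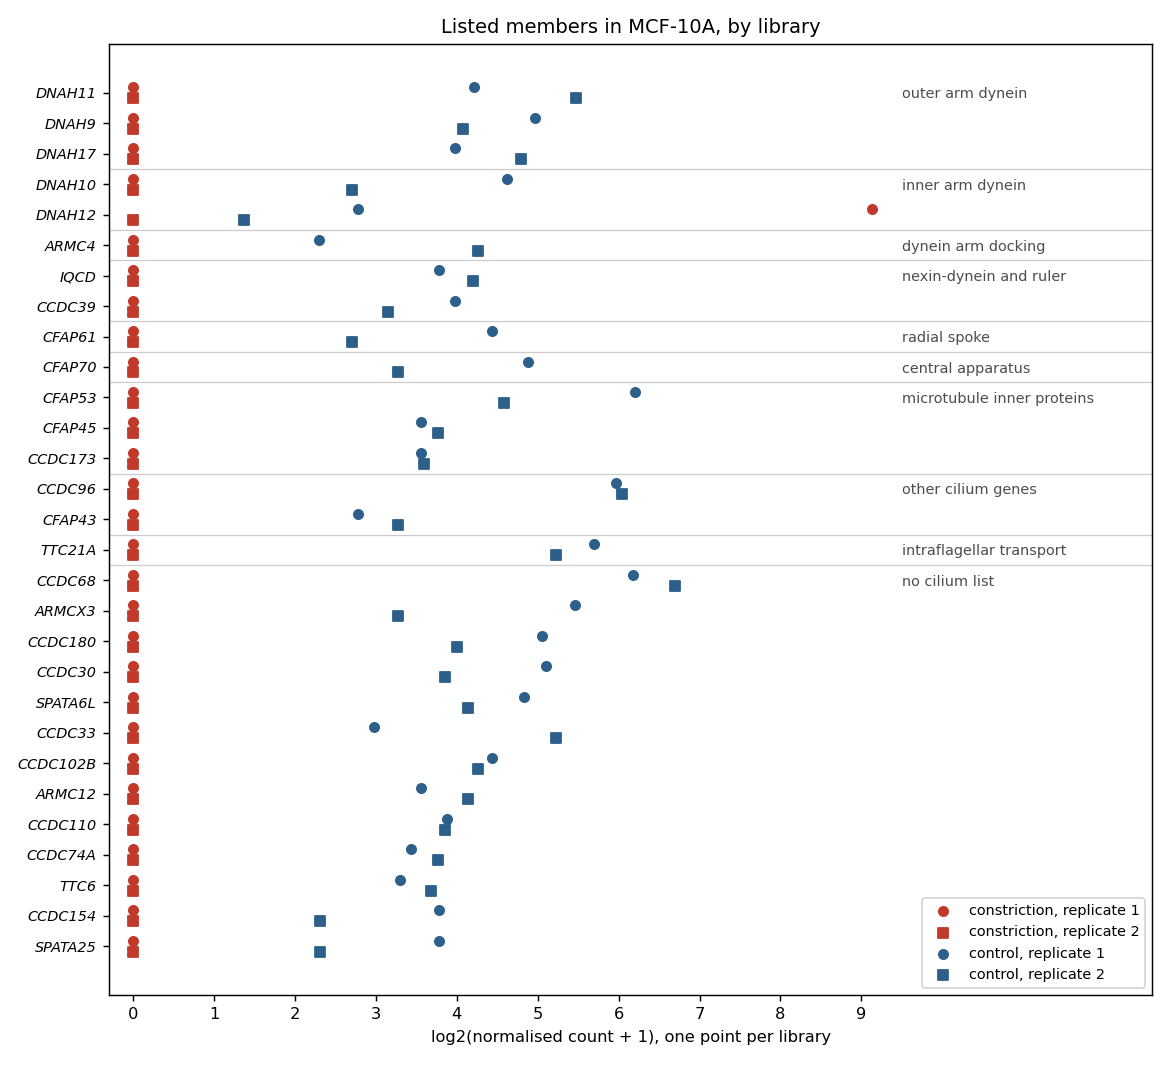
Normalised counts of the 29 members listed in MCF-10A, on a log2(normalised count + 1) axis. Each point is 1 library, red for constriction and blue for control, circles for replicate 1 and squares for replicate 2, with genes grouped by role. In 28 genes both red points lie at 0 below both blue points, and in DNAH12 one red point lies far above the controls and the other at 0.

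With edgeR's quasi-likelihood test 28 of 29 members were lower after transit, with Benjamini-Hochberg adjusted p between 0.00469 and 0.0125, and 0 were higher. The fit held the listed genes only, so the spread between libraries was estimated from genes already selected for a difference. These calls are therefore no independent support for one. Of all listed genes 91.3% were called lower. With the replicate number as a block 24 of 29 members were called lower, against 74.2% of the table, and the 4 calls lost were those of the members with the highest control means. All groups of the 28 genes were separate, as were those of 96.8% of the table. The calls rest on all 4 libraries: without either constriction library, or without control replicate 2, 0 of the 28 were called lower, where 0 to 4 of the 2680 listed genes were. Without control replicate 1, 7 of them were, beside 556 listed genes. They also rest on the test, since 15 members were called lower with the newer dispersion estimate of edgeR, beside 48.6% of all listed genes, and 0 with limma at a pseudocount of 10, beside 0.00%.

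Among the outer arm dynein heavy chains, DNAH9, DNAH11 and DNAH17 fell after transit. These are large motor subunits, and DNAH11 is best known for a ciliary motility disorder that leaves the axoneme looking normal. DNAH11 (chr7:21543215-21901839, plus strand) had 18 and 55 reads in the control libraries and 0 in each constriction library. Its control mean was 30.5 ± 18.2 normalised counts (SD, n = 2), at least 9.08-fold above the limit in constricted cells (adjusted p = 0.00469, edgeR). DNAH9 had 31 and 20 control reads and was lower by at least 6.86-fold. DNAH17 had 15 and 34 control reads and was at least 6.18-fold lower. The control libraries did not rank the 3 genes alike, since DNAH9 was highest in replicate 1 and DNAH11 in replicate 2.

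These genes have exons of 15998 to 16980 bases in all, so few reads per gene meant a very low level per length. Their control FPKM, a level scaled to gene length and library size, was 0.0526 for DNAH11, 0.038 for DNAH9 and 0.0356 for DNAH17. All 3 were under the median of 0.161 for the other 1160 protein-coding genes of the table. For DNAH17 9.15% of exon bases overlap the antisense gene DNAH17-AS1, and for DNAH11 5.21% overlap CDCA7L on the opposite strand. Since no source used here says whether strand was kept, reads in such stretches cannot be assigned.

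Of the inner arm heavy chains, DNAH10 fell after transit, whereas DNAH12 was read mainly in 1 constriction library. DNAH10 had 24 and 7 control reads and none after transit, at least 4.32-fold lower (adjusted p = 0.00539, edgeR). In DNAH10 10.8% of exon bases overlap the antisense gene DNAH10OS. DNAH12 (chr3:57293699-57544344, minus strand) had 466 reads in constriction replicate 1, 0 in constriction replicate 2, and 6 and 2 in the controls. Its constriction libraries lay on both sides of the controls, so the groups overlapped. The mean was higher by 5.90 ± 1.58 (log2, SE), but DNAH12 was not called by edgeR (adjusted p = 0.372), and with TMM factors, computed from the listed genes, the difference was 2.67.

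The higher mean of DNAH12 came from constriction replicate 1 alone. Without that library the log2 difference was -2.24, and without constriction replicate 2 it was 6.90. The same pattern, with at least 100 reads in constriction replicate 1, at most 3 in replicate 2 and at most 10 in each control, was found in 70 genes of the table, of which 21 are protein-coding.

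ARMC4, now named ODAD2, is a docking factor that holds outer dynein arms on the doublet. It had 4 and 23 control reads and none after transit. The normalised counts of its control libraries, 3.92 and 18.2, differed 4.64-fold, and the bound of 3.28-fold fell to 1.17-fold without control replicate 2.

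Of the nexin-dynein regulatory complex, IQCD, which RefSeq now names DRC10, had 13 and 22 control reads and stood at least 4.48-fold lower. CCDC39, which with CCDC40 forms the ruler that spaces the inner arms and spokes along the doublet, had 15 and 10 control reads and was at least 3.36-fold lower. Both were called (adjusted p = 0.00469 each, edgeR). The value of CCDC39 is uncertain, because 83.3% of its exon bases are shared with other annotated genes. A second annotated gene of that name on the same strand takes in 60.3% of them.

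CFAP61, a protein of the base of the radial spokes, had 21 and 7 control reads and was lower by at least 3.88-fold. CFAP70, listed here with the central apparatus, had 29 and 11 control reads and was at least 5.52-fold lower. Both were over 3-fold higher in control replicate 1 than in replicate 2 as normalised counts, with ratios of 3.72 and 3.27. The fall of each was called (adjusted p = 0.0049 and 0.00483, edgeR).

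The microtubule inner proteins gave CFAP53, CFAP45 and CCDC173, which RefSeq now names CFAP210. CFAP53 (chr18:50227193-50266522, minus strand) is also known for its role in left-right patterning of the embryo. It had 74 and 29 control reads and none after transit, with a control mean of 47.7 ± 35.0 normalised counts (SD, n = 2) and a bound of 14.2-fold. With the replicate block it was not called (adjusted p = 0.134, edgeR). CFAP45 had 11 and 16 control reads and CCDC173 had 11 and 14, at least 3.48-fold and 3.25-fold lower after transit. CCDC173 stood near to equal in both control libraries, at 10.8 and 11.1 normalised counts.

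CCDC96, now CFAP184, and CFAP43, which ties inner dyneins to the doublet, are other axonemal proteins on the list. CCDC96 had 63 and 82 control reads, 63.2 ± 2.17 normalised counts (SD, n = 2), and stood at least 18.8-fold lower. Its control FPKM of 0.839 was the highest of the 29 members, and CFAP53 followed at 0.722. The 2 genes overlap in their control libraries, since CFAP53 was above CCDC96 in replicate 1 and below it in replicate 2 by FPKM. CFAP43 had 6 and 11 control reads, with a bound of 2.17-fold, the lowest of the 28. TTC21A, a paralog of the intraflagellar transport protein TTC21B, had 52 and 46 control reads and was at least 13.0-fold lower. With the replicate block neither CCDC96 nor TTC21A was called (adjusted p = 0.354 and 0.0974, edgeR).

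The other 13 members with no constriction read stand on no cilium list. CCDC68 (chr18:54901509-54959508, minus strand), a protein of the subdistal appendages of the mother centriole, had 73 and 130 control reads. Its control mean was the highest of the 29, 87.1 ± 22.0 normalised counts (SD, n = 2), although CFAP53 was level with it in replicate 1 with 74 reads. This mean was at least 25.9-fold above the limit after transit (adjusted p = 0.0125, edgeR). With the replicate block it was not called (adjusted p = 0.712, edgeR). Over all alternatives, with edgeR, DESeq2 and limma, the adjusted p of CCDC68 ran from 0.000626 to 1.00. That of CCDC96 ran to 0.742, that of TTC21A to 0.553 and that of CFAP53 to 0.615. No exon base of CCDC68 is shared with another annotated gene.

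CCDC102B, a linker protein of the centrosome, had 21 and 23 control reads and was lower by at least 5.76-fold. CCDC74A, a protein of spindle microtubules, had 10 and 16 control reads and was at least 3.34-fold lower. ARMCX3, a protein of the mitochondrial outer membrane that takes part in moving mitochondria, had 44 and 11, normalised counts 4.96-fold apart, and a bound of 7.70-fold. These 3 genes are known from other structures than the axoneme.

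Several of these genes are known chiefly from testis. CCDC33 had 7 and 46 control reads, and CCDC110 had 14 and 17, at least 6.42-fold and 4.04-fold lower after transit. ARMC12, which arranges mitochondria around the sperm flagellum, had 11 and 21 control reads and was at least 4.07-fold lower. SPATA25 had 13 and 5, at least 2.48-fold lower. Of these 4, CCDC33 had control libraries 5.30-fold apart as normalised counts, the only member past 5-fold.

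CCDC30, CCDC180 and SPATA6L had 34, 33 and 28 reads in control replicate 1. In control replicate 2 they had 17, 19 and 21 reads. All 3 were lower after transit, by at least 6.95-fold, 7.04-fold and 6.55-fold. For CCDC180 39.0% of exon bases are shared on the same strand with STRA6LP, so its count is uncertain. TTC6 had 9 and 15 control reads and a bound of 3.07-fold, and CCDC154 had 13 and 5 with a bound of 2.48-fold. TTC6, CCDC154 and SPATA25 have the lowest control means of the 13 and are named although the rule for named genes left them out, a choice made after their values were seen.

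Over the 29 members the median log2 difference on the log2(normalised count + 1) scale was -4.00, beside -4.32 for the other 1160 protein-coding genes and -4.05 for all 2680 genes of the table. Its size is set by the pseudocount, because the constriction counts are 0. Taken as bounds, the folds of the 28 genes ran from 2.17 to 25.9 with a median of 5.00. Without control replicate 1 they ran from 1.17 to 30.5 and 11 of them moved over 1.5 times, and without control replicate 2 they ran from 1.17 to 21.6 and 10 moved. CFAP53, CCDC33, ARMCX3, CFAP70, CFAP61, DNAH10, ARMC4, CCDC154 and SPATA25 moved in both cases, CCDC30 and CCDC180 in the former only and DNAH11 in the latter only. Leaving out a constriction library moved none of the 28 bounds by that much. The median control level of the members was 15.05 normalised counts beside 20.52 for the other protein-coding genes, and per length it was 0.0838 FPKM beside 0.161. The median exon length was 5805 bases in the members and 3951 in the other protein-coding genes. None of these medians was tested.

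**Figure D2:**
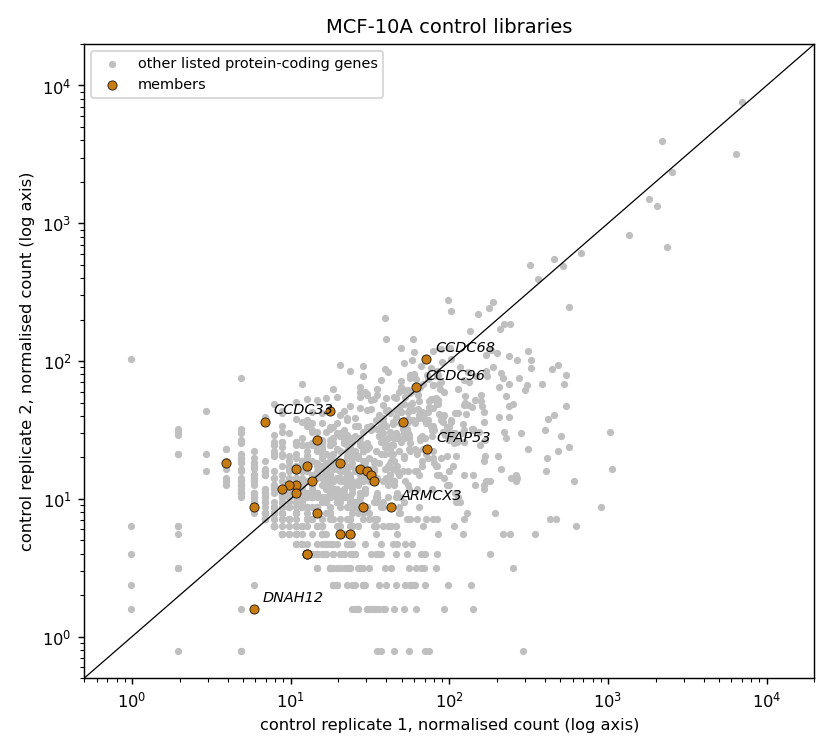
Normalised counts in control replicate 1 (x) and replicate 2 (y) of MCF-10A, log axes, for the 29 members (orange) and the other listed protein-coding genes with reads in both (grey), with the line of equality. The members lie in the lower range of the grey cloud and on both sides of the line, with 16 above in replicate 1 and 13 above in replicate 2.

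The control libraries themselves differed. Normalised counts of 13 of the 29 members differed over 2-fold between the control libraries, and the median ratio of the higher to the lower was 1.86, beside 2.02 for the other protein-coding genes. Control replicate 1 was the higher for 16 members and control replicate 2 for 13, so neither control library carried the whole group. Among the other protein-coding genes replicate 1 was the higher for 776 and replicate 2 for 379. Exon bases of 20 of the 29 members overlap another annotated gene, over 10 percent of them in 6 members, while the remaining 9 members, DNAH12 and CCDC68 among them, share none.

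Membership in the table differed among the name groups. Of the genes with these prefixes in GENCODE version 29, 29 of 336 (8.63%) were listed in MCF-10A, beside 1189 of 19951 protein-coding genes (5.96%). The dynein heavy chains DNAH were listed most often, 5 of 13 (38.5%), then ARMC with 3 of 17 (17.6%), CFAP with 5 of 33 (15.2%) and CCDC with 11 of 149 (7.38%). None of the 2 DNAI, 5 TEKT, 11 SPAG, 8 RSPH and 3 DRC genes was listed. Listing depended on the authors' test, and the shares were not tested.

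**Figure D3:**
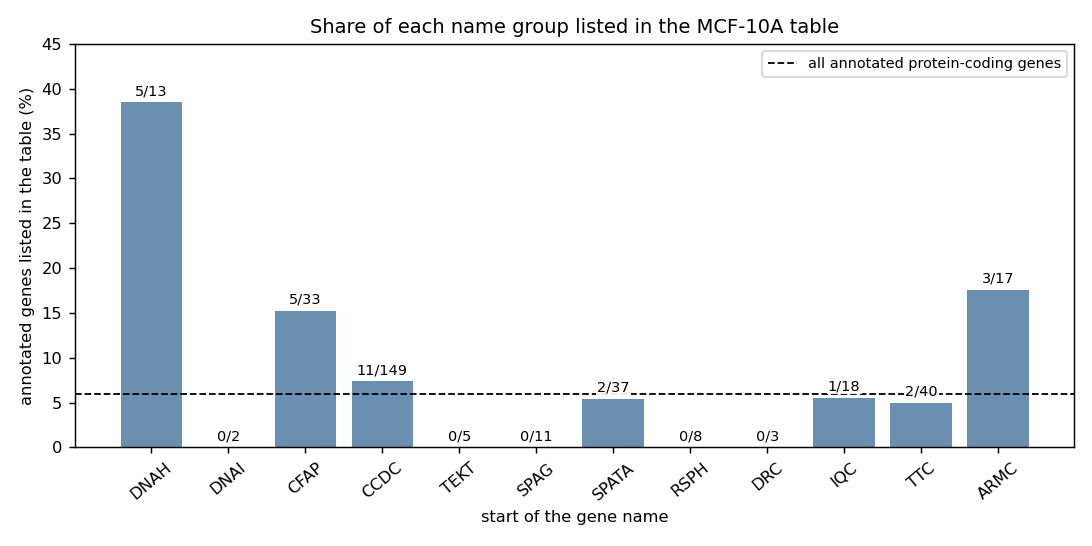
Percent of the annotated protein-coding genes of each name group that were listed in the MCF-10A table, with listed over annotated genes above each bar. The dashed line is the share of all annotated protein-coding genes, 5.96%. DNAH, ARMC, CFAP and CCDC lie above the line and the other name groups below it.

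The lists of cilium proteins gave further genes outside the name prefixes. Of 225 genes on the cilium lists 25 were in the MCF-10A table, 16 of them members and 9 others, and these 9 were all called lower with edgeR (as were 91.3% of all listed genes), and 5 of 9 with the replicate block (74.2% of all listed genes). The assembly factors that fold dynein arms in the cytoplasm were present as DNAAF1, DNAAF3 and DNAAF4, with 15 and 8, 90 and 25, and 6 and 19 control reads and none after transit. The counts of DNAAF3 and DNAAF4 are uncertain, since 31.4% and 40.5% of their exon bases are shared with other annotated genes. SPEF1 and SPEF2 of the central apparatus had 9 and 7, and 65 and 57 control reads, also with none after transit. The remaining 4 were FBXL13, NME5, TCTEX1D2 and CEP19, whose control means ran from 15.9 to 77.4 normalised counts, and TCTEX1D2 shares 31.1% of its exon bases with other genes. None of 14 genes for transcription of motile cilium genes and centriole amplification was listed.

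Of the multiciliated cell genes, CDHR3 had 16 and 29 control reads and PIFO had 19 and 17, with none after transit. CAPS was the only one of these 12 further genes with constriction reads, 0 and 16, beside 243 and 137 in the controls, and it was not called (adjusted p = 0.739, edgeR). Summed over these 3 genes there were 278 and 183 reads in the control libraries and 0 and 16 in the constriction libraries. The other 17 genes of that list were not in the table, and the part of rare ciliated cells in the result was not tested.

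In MDA-MB-231 cells 3 of the 4 listed members had higher normalised counts after transit and 1 had lower ones, beside 254 of all 381 listed genes with a higher mean and 127 with a lower one. Their control FPKM was 1.21 for IQCJ-SCHIP1, 1.46 for CCDC163 and 2.76 for SPATA5, while RSPH6A had no control read. None of the 4 was called with edgeR (adjusted p = 1.00 for each), where 0.262% of the 381 listed genes were. With the replicate block 0 of the 4 were called, where 22.6% of the listed genes were. At an unadjusted p under 0.05 all 4 passed, as did 94.0% of the listed genes, and the table holds only genes under that threshold in the authors' own test. Groups of all 4 were separate, as were those of 94.5% of the table.

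RSPH6A (chr19:45795710-45815319, minus strand), a radial spoke head protein known from sperm flagella, had 7 and 12 reads in the constriction libraries and 0 in each control. Against the limit of 3 reads in the controls it was at least 2.81-fold higher after transit. It is the only member on a cilium list in this line, and its reads were few (adjusted p = 1.00, unadjusted p = 0.00538, edgeR). SPATA5, now AFG2A, an AAA ATPase of ribosome biogenesis, had 1644 and 1437 reads in constricted cells and 900 and 1146 in controls. Its normalised counts were 1467 ± 197 and 1064 ± 110 (SD, n = 2 each), a log2 difference of 0.46 ± 0.17 (SE), or 0.06 with TMM factors.

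IQCJ-SCHIP1 had 410 and 399 constriction reads and 208 and 274 control reads, a log2 difference of 0.62 ± 0.10 (SE), or 0.22 with TMM factors. It is a readthrough gene that shares 46.2% of its exon bases with the IQCJ and SCHIP1 genes it joins, so its count is uncertain. CCDC163 went the other way, with 52 and 140 constriction reads and 155 and 209 control reads, a log2 difference of -1.05 ± 0.63 (SE), or -1.45 with TMM factors. Without constriction replicate 1 it was -0.54 and without constriction replicate 2 it was -1.87. The constriction libraries of CCDC163 differed more from each other than the controls did, at 50.8 and 129.3 normalised counts beside 196.6 and 179.8. The unadjusted p-values were 0.0416, 0.0321 and 0.0497 for SPATA5, IQCJ-SCHIP1 and CCDC163 (edgeR).

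**Figure D4:**
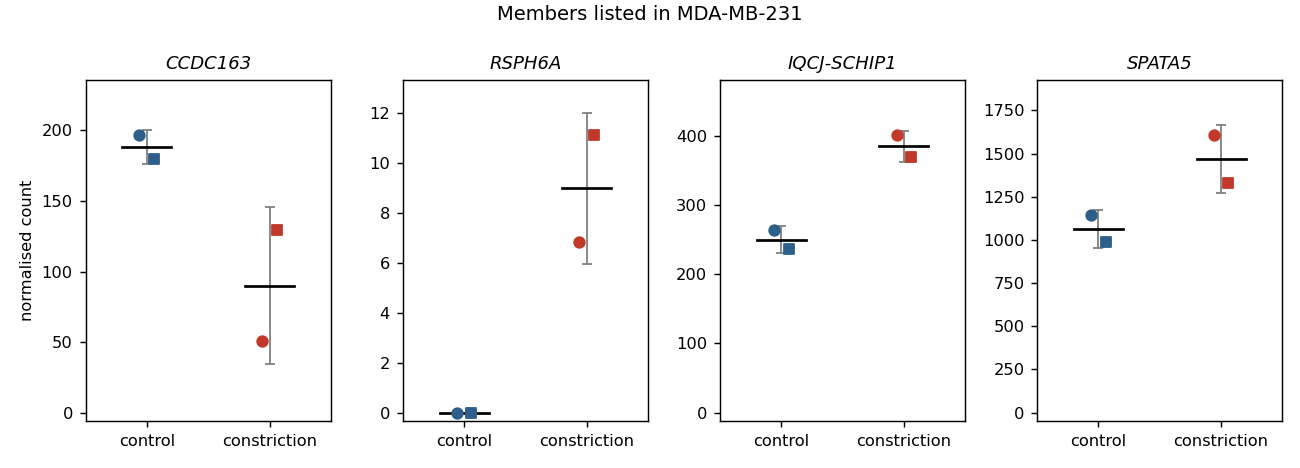
Normalised counts of the 4 members listed in MDA-MB-231, each on its own axis from 0. Circles are replicate 1 and squares replicate 2, the black bar is the mean and the grey bar the SD of 2 libraries. RSPH6A, IQCJ-SCHIP1 and SPATA5 are higher and CCDC163 lower in both constriction libraries than in both controls.

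Of the 336 annotated genes with these name prefixes, 4 (1.19%) were listed in MDA-MB-231, beside 0.722% of all protein-coding genes, and 0 in LM2, beside 0.155%. The lines cannot be compared gene by gene here, because no member was listed in both.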

How the data were processed

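The members and lists were chosen with earlier results of these data known. The data are the deposited tables of 12 RNA sequencing libraries. The authors filtered reads with fastp, aligned them with HISAT2 2.0.5 to GRCh38, counted them per gene with featureCounts 1.5.0-p3 (deposited counts), divided the counts by DESeq2 1.20.0 size factors within a cell line (deposited normalised counts, a signal scale) and computed the deposited FPKM. The deposited log2 fold changes, p-values and adjusted p-values are those of the authors' comparison, and the tables hold only genes with an unadjusted p under 0.05. The GO term tables, which hold the ratio of members to background genes, were not used.

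Constriction was compared with control within each cell line by edgeR 4.0.16 (quasi-likelihood, R 4.3.3) on read counts, scaled by the deposited size factors. Benjamini-Hochberg adjustment ran over 19236 (MCF-10A), 23976 (MDA-MB-231) and 30209 (LM2) genes, with unlisted genes at a p of 1. These totals follow from p-values before and after adjustment in the tables, whose only other use was to find the largest p-value in each table. The threshold was an adjusted p under 0.05, two-sided. Log2 differences use log2(mean normalised count + 1), with SE from 2 libraries per group, and bounds use 3 reads. Alternatives were DESeq2 1.42.0, TMM factors, limma 3.58.1 with pseudocounts of 1 and 10, a mean normalised count of at least 10, the newer dispersion estimate, the replicate block and each library left out.

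The fit reported first has no block. The replicate block, an alternative, takes replicate numbers as pairs, because the study lists constriction and control of a replicate as one experiment, although deviations of same-numbered libraries correlated at only -0.0427 (MCF-10A), 0.0827 (MDA-MB-231) and -0.0317 (LM2). One LM2 constriction library bears 2 in the title but 1 in the description. Named genes are every member on a list, in MDA-MB-231 or with MCF-10A constriction reads, and of the other MCF-10A members the 10 with the highest control mean. Overlaps come from GENCODE version 29 and promoters from RefSeq (GRCh38.p14), the start nearest to the gene's start. DNAH17, ARMCX3, ARMC12 and CCDC74A had no promoter in the table. Longer forms of the X-box were also looked at, and the window of 120 bases was chosen after the positions had been seen.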

Additional observations from a re-analysis of the deposited data

How the results depend on the processing

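Of 29 MCF-10A members, 28 were lower with DESeq2, TMM factors and adjustment over the table alone, 24 with the replicate block and 20 with limma at a pseudocount of 1. In the same order, these settings called 2446, 2299, 2497, 1988 and 1611 of the 2680 listed genes lower. The number was 15 with the newer dispersion estimate, beside 1302 of all listed genes. Above a minimum mean of 10 normalised counts it was 11 of 13, beside 893 of 1209 listed genes. With limma at a pseudocount of 10 it was 0, as for all listed genes. At an unadjusted p under 0.05 limma at that pseudocount gave 21 members and 2003 listed genes. Without 1 library in turn it was 0 to 7, with 0 to 1 higher. These fits take the lone library of a group to vary like the other group, so their calls are a description only. The higher call was that of DNAH12 without constriction replicate 2. That fit also called more of all listed genes higher than the fit with every library did, so the call does not set DNAH12 apart. Above that minimum 12 members had 0 constriction reads and 12 had separate groups, but these 12 passed it through their control libraries alone, so their lower values and separate groups follow from the filter. An unadjusted p under 0.05 gave 1 higher member, DNAH12, beside 73 of all listed genes. TMM factors moved the log2 fold changes of all MCF-10A genes by a median of -1.46 and of all MDA-MB-231 genes by -0.40, and no named member changed direction, though DNAH12 stood at 2.67 in place of 5.90.

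The median log2 difference of the MCF-10A members was -4.96 with a pseudocount of 0.5, -1.32 with 10, -4.62 with a mean of at least 10, -0.12 on log2(FPKM + 1) and -4.00 to -3.85 without 1 library in turn. DNAH12 reversed to -2.24 without constriction replicate 1 and stood at 6.90 without constriction replicate 2. In MDA-MB-231, 3 members were higher with adjustment over the table alone (239 listed genes higher, 115 lower), 1 was lower and 3 higher at an unadjusted p under 0.05 (118 lower, 240 higher), and 0 of 4 were called with the replicate block (86 of all 381 listed genes). The 2 libraries per group and the low control counts limit the precision of every MCF-10A member.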

Other observations

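In MCF-10A, 6 further listed genes carry member names but are not protein-coding. TTC28-AS1 had 185 and 159 reads in the control libraries and none after transit. CCDC162P had 39 and 15 control reads, CCDC183-AS1 had 7 and 28, TTC41P had 4 and 30, and SPATA41 had 6 and 11, all with none after transit. ARMC10P1, a pseudogene of ARMC10, had 609 reads in constriction replicate 1, 1 in constriction replicate 2, and 7 and 11 in the controls, the same split between the constriction libraries as DNAH12. It was not called (adjusted p = 0.444, edgeR).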
